A study of Sus scrofa with 4 samples.

Results

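The genes described here code for the mitochondrial ribosome, for factors that work on it and for the machinery that brings proteins into mitochondria, and their transcript levels were compared in the liver of piglets fed with or without added L-carnitine. A gene was included when a probe set of the porcine array carried exactly 1 annotated gene symbol that begins with MRPL (large ribosomal subunit), MRPS (small ribosomal subunit), TIMM (translocase of the inner membrane) or TOMM (translocase of the outer membrane), or that is GFM1, GFM2, TUFM, TSFM, PMPCA or PMPCB. Where several probe sets named a gene, the probe set with the highest mean log2 signal over the 4 arrays was used. This gave 81 of the 6765 genes that the array's annotation names through such probe sets: 36 genes of the large subunit, 22 of the small subunit, 20 of protein import and 3 translation factors. The 81 genes were covered by 104 probe sets, and GFM2 was not among them. Another 6 probe sets, for MRPL22 and MRPL55, carry several symbols and were left out.

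The carnitine group received a basal diet with 500 mg of added L-carnitine per kg for 21 days, and the control group received the same basal diet without it. Each group held 8 male crossbred pigs [(German Landrace x Large White) x Pietrain] that were 4 weeks old at the start and 7 weeks old when their livers were taken, 2.5 h after the last meal. RNA from 4 pigs was combined in each pool, 2 pools were made per diet, and each pool was hybridized to a single-colour Affymetrix porcine array. The replicate is therefore the pool, and a single pig's level cannot be seen. The p-values rest on the spread between the pools of a diet, moderated by that of other probe sets of similar signal. In whole liver, fewer cells of a type and less RNA per cell cannot be told apart.

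Mitochondria keep a small genome that codes for a few subunits of the respiratory chain and of ATP synthase, together with the RNAs needed to translate them. The proteins of the ribosome that translates these messages are themselves coded in the nucleus, made in the cytosol and imported. An imported precursor passes the outer membrane through the TOM complex, is escorted across the intermembrane space or handed to a TIM complex of the inner membrane, and usually loses its targeting sequence to a peptidase in the matrix. Liver is rich in mitochondria, where carnitine carries long-chain fatty acids across the inner membrane for oxidation.

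The values are MAS5 signals, a summary of the probe pairs of a probe set on a linear scale, which the authors scaled to a common level on all arrays. The median signal of the arrays lay between 109 and 114. The 10 measured hepatocyte markers were bright on every array, with signals from 12424 upward. Of them 9 were lower and 1 was higher in carnitine pools, with a median log2 fold change of -0.12. Without overlap 4 (40%) were lower and 1 (10%) was higher, beside 20.4% and 19.2% of all probe sets. Markers of other cells were not even between pools: the 7 measured markers of stellate cells and fibroblasts summed to 4578 and 4296 in carnitine pools, against 3311 and 12048 in control pools, so that control pool 2 stood apart. Summed signals of 6 macrophage markers were 3952 and 3402 in carnitine pools, against 4761 and 4376 in control pools. For 8 T and NK cell markers the sums were 962 and 821, against 1394 and 976. The bright markers weigh most in such sums. In the macrophage list 1 marker (16.7%) was higher and 2 (33.3%) were lower in carnitine pools without overlap. In the T and NK cell list the counts were 1 (12.5%) and 2 (25%). These shares were 19.2% and 20.4% over all probe sets. No marker of stellate cells and fibroblasts separated the diets. For 3 erythroid markers the sums were 771 and 574, against 1027 and 1362, but the markers differed. ALAS2, the erythroid enzyme of haem synthesis, was 358 and 239.6 in carnitine pools, against 644 and 917 in control pools (log2 fold change -1.39, adjusted p = 0.342, limma). AHSP, below the median signal, was 104 and 34.8, against 105 and 144. The globin HBB overlapped between the diets, at 310 and 299 against 278 and 301 (log2 fold change 0.07). None of these markers was listed at 0. The ratio of 3′ to 5′ control probe sets for GAPDH, a measure of RNA integrity and labelling, was 18.7 and 16.1 in carnitine pools, against 12.5 and 11.6 in control pools. The actin ratio was 157 and 136, against 91.2 and 86.7, whereas that of EF1A overlapped between the diets (23.4 and 29.6 against 57.9 and 18.2). The part of these differences in the results below was not tested.

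No gene of the mitochondrial ribosome or of protein import passed an adjusted p of 0.05, in a fit over 23999 probe sets of which 1, or 0.00417%, passed. The smallest adjusted p among the 81 genes was 0.208. Without adjustment 9 genes had a p under 0.05, and all 9 were higher in carnitine pools: MRPL17, MRPL24, MRPL40, MRPL43 and MRPL50 of the large subunit, MRPS30 and MRPS34, and the import chaperones TIMM8A and TIMM8B. These 9 genes are 11.1% of the 81. Over all probe sets 4.72% were higher and 3.93% were lower by the same measure, and among probe sets brighter than the median, where 80 of the 81 genes lie, the shares were 6.74% and 5.24%. The closest background is the 5039 genes with 1 symbol whose brightest probe set lies above the median, and of these 7.98% were higher and 4.37% lower. None of the 81 genes was lower at an unadjusted p under 0.05.

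Counted without a model, 31 of the 81 genes (38.3%) had both carnitine pools above both control pools, against 19.2% of all probe sets, and 7 genes (8.64%) had both carnitine pools below both control pools, against 20.4% of all probe sets. Among the genes with 1 symbol above the median signal these shares were 23.7% and 21.6%. In the other 43 genes the pools of the diets overlapped. The log2 fold change, carnitine over control, was above 0 in 55 genes and below 0 in 26, with a median of 0.15, beside -0.02 for all probe sets. These shares describe genes that share 4 arrays, and the difference from the background shares was not tested. The changes were small in size: 67 of the 81 genes lay within 0.5 on the log2 scale of no difference, and 2 genes, MRPL24 and TIMM8A, differed by 2-fold or more, where 3.65% of the probe sets brighter than the median did. With 2 pools per diet the median standard error was 0.23 on the log2 scale, and the 95% confidence interval reached 0.54 to each side in the median gene, so that a difference of the size of the median could not be detected in a single gene.

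**Figure D1:**
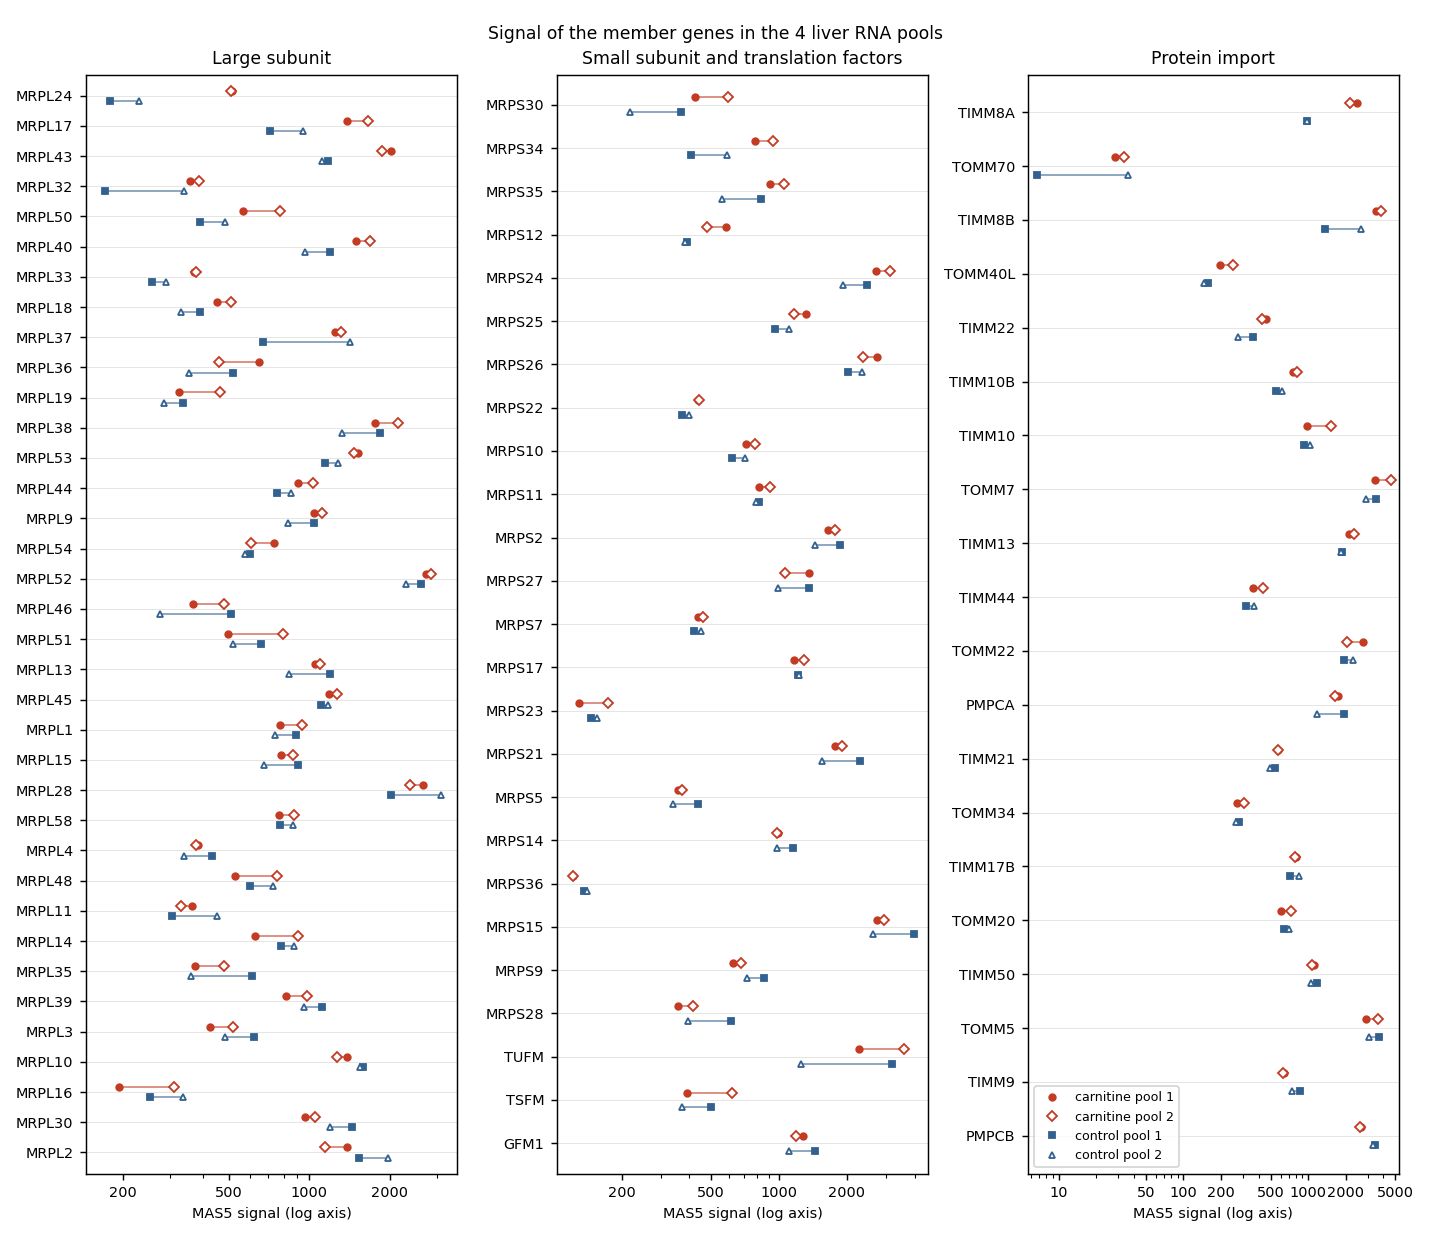
MAS5 signal (log axis) of each of the 81 genes in the 2 carnitine pools (red) and the 2 control pools (blue), with a line between the pools of a diet and the genes of each group ordered by fold change. The red pair lies to the right of the blue pair without overlap in 31 genes and to the left in 7 genes.

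The large subunit, which joins amino acids into protein, was represented by 36 genes with signals between 171 and 3109. The carnitine mean exceeded the control mean in 24 of these genes and fell short of it in 12, with a median log2 fold change of 0.14. In this and the later counts the means are those of log2 signals. At an unadjusted p under 0.05, 5 (13.9%) were higher. The pools did not overlap in 14 genes (38.9%) that were higher and in 3 (8.33%) that were lower. Among all genes with 1 symbol above the median signal, 7.98% were higher at an unadjusted p under 0.05. Without overlap, 23.7% of these were higher and 21.6% lower.

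MRPL24, a ribosomal protein with a bacterial counterpart, showed the widest difference of the 81 genes. Its signal was 512 and 508 in carnitine pools, against 179 and 229 in control pools. The carnitine pools were nearly alike and lay at more than 2 times either control pool, which gave a log2 fold change of 1.33 ± 0.26 (SE; unadjusted p = 0.00132, adjusted p = 0.314, limma). MRPL43, a protein that bacterial ribosomes lack, was measured by a pair of probe sets. The brighter of them read 2024 and 1876 in carnitine pools, against 1177 and 1118 in control pools (log2 fold change 0.76 ± 0.19, unadjusted p = 0.00426, adjusted p = 0.395, limma). The dimmer probe set of MRPL43 read 296 and 282 in carnitine pools, against 138 and 191 in control pools, so both probe sets separated the diets in the same direction.

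MRPL17 followed, with 1386 and 1654 in carnitine pools, against 714 and 948 in control pools (log2 fold change 0.88 ± 0.23, unadjusted p = 0.00588, adjusted p = 0.399, limma). MRPL40, first known in humans as a gene of the 22q11 deletion region, had 1489.7 and 1692 in carnitine pools, against 1197 and 959.9 in control pools, a log2 fold change of 0.57. MRPL50 lay at the edge of the threshold: 566 and 774 in carnitine pools, against 388 and 484 in control pools, with an unadjusted p of 0.0497 in the limma fit. In each of these 5 genes both carnitine pools lay above both control pools.

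Genes of the large subunit with lower signals in carnitine pools were fewer, and the limma fit called none of them. MRPL2, the counterpart of a bacterial protein close to the peptidyl transferase centre, had 1385 and 1145 in carnitine pools, against 1529 and 1972 in control pools (log2 fold change -0.46 ± 0.22, unadjusted p = 0.0716). Its second probe set gave -0.40. MRPL30 had 962 and 1051 in carnitine pools, against 1448 and 1195 in control pools (log2 fold change -0.39), and MRPL10 was the other gene without overlap, at 1381 and 1271 against 1591 and 1551.

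For 3 large subunit genes with known special roles the confidence interval of the difference held 0, although the pools of MRPL44 and MRPL45 did not overlap between the diets. MRPL45, which lies at the exit of the protein tunnel and holds the ribosome to the inner membrane, had 1180.3 and 1265 in carnitine pools, against 1109.8 and 1178 in control pools, with a 95% confidence interval of -0.35 to 0.54 for the log2 fold change. MRPL58, a peptidyl-tRNA hydrolase that rescues stalled ribosomes, had 766 and 876 in carnitine pools and 775 and 869 in control pools, with an interval of -0.49 to 0.49. MRPL44, a relative of the RNase III enzymes, was at 909 and 1035 in carnitine pools, above 753 and 851 in control pools, with an interval of -0.21 to 0.76. Among the brightest large subunit probe sets, MRPL52 had 2738 and 2852 in carnitine pools, against 2627 and 2291 in control pools, and MRPL28 had 2657 and 2374, against 2022 and 3109.

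The small subunit, which reads the message, was represented by 22 genes with signals between 121 and 3989. The median log2 fold change was 0.05, smaller than in the large subunit, although the difference between the subunits was not tested. The carnitine mean was the higher in 14 of them and the lower in 8. At an unadjusted p under 0.05, 2 (9.09%) were higher, near the 7.98% of all genes with 1 symbol above the median signal. The pools did not overlap in 10 (45.5%) that were higher and 2 (9.09%) that were lower, beside 23.7% and 21.6% in that background.

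MRPS34, which is specific to mitochondrial ribosomes, had 785 and 937 in carnitine pools, against 405 and 588 in control pools (log2 fold change 0.81 ± 0.26, unadjusted p = 0.0159, adjusted p = 0.461, limma). MRPS30 had 424 and 591 in carnitine pools, against 368.5 and 218 in control pools (log2 fold change 0.82 ± 0.33, unadjusted p = 0.042, adjusted p = 0.554, limma). MRPS30 carries the name of the small subunit, but structures of the mammalian ribosome place the protein in the large one, where it sits with its relative MRPL37. MRPL37 had 1245 and 1311 in carnitine pools, against 668 and 1419.5 in control pools, so its control pools lay on either side of the carnitine pools.

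Of the small subunit genes that were higher without overlap, 8 did not pass the unadjusted threshold, MRPS35, MRPS24 and MRPS12 having the smallest p among them. MRPS35 had 914.5 and 1051 in carnitine pools, against 829 and 556 in control pools (log2 fold change 0.53, unadjusted p = 0.0748 in limma). MRPS24, 1 of the 2 brightest probe sets of this subunit, had 2688 and 3114 in carnitine pools, against 2453 and 1928 in control pools (log2 fold change 0.41), and the other, MRPS15, overlapped between the diets and pointed the other way, with 2709.8 and 2934 in carnitine pools, against 3989 and 2621 in control pools (log2 fold change -0.20). MRPS12, whose bacterial relative lies at the decoding centre, had 579.9 and 479 in carnitine pools, against 392 and 381 in control pools (log2 fold change 0.45).

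The lowest log2 fold changes of the small subunit were those of MRPS28 (-0.36) and MRPS9 (-0.27). MRPS28 had 354 and 416 in carnitine pools, against 612 and 395 in control pools, and the diets overlapped. MRPS9 had 625 and 678 in carnitine pools, against 854 and 723 in control pools, without overlap. MRPS36, now regarded as a component of the 2-oxoglutarate dehydrogenase complex rather than of the ribosome, was the other gene with both carnitine pools below both control pools (122 and 121 against 136 and 141), with a 95% confidence interval of -0.98 to 0.61.

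The translation factors varied more between pools of a diet than between diets. TUFM, the elongation factor that delivers aminoacyl-tRNA, had 2269 and 3602 in carnitine pools, against 3177 and 1245 in control pools (log2 fold change 0.52 ± 0.44). TSFM, the exchange factor that returns TUFM to its active form, had 391 and 620.3 in carnitine pools, against 497 and 371 in control pools (log2 fold change 0.20 ± 0.30), and GFM1, which moves the ribosome along the message, had 1280.0 and 1187, against 1441 and 1106 (log2 fold change -0.03 ± 0.21). In all 3 the diets overlapped. TUFM and TSFM were both higher in carnitine pool 2 than in pool 1 and lower in control pool 2 than in pool 1.

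**Figure D2:**
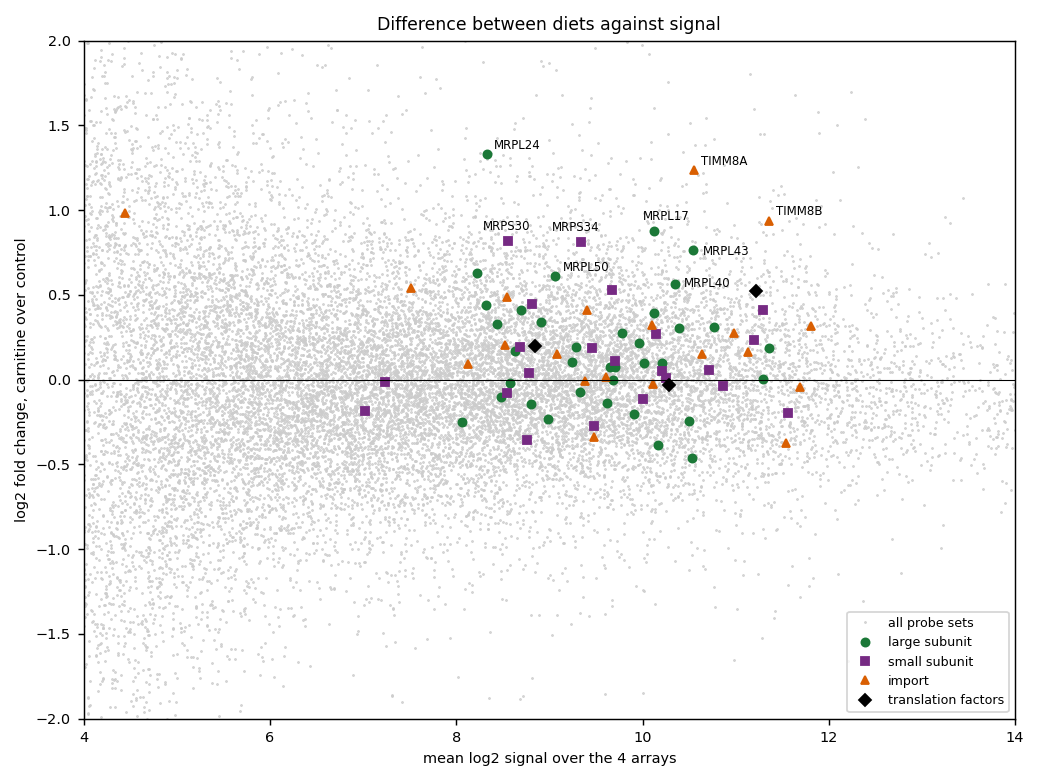
Log2 fold change, carnitine over control, against the mean log2 signal over the 4 arrays for all probe sets (grey, within the axes shown) and the 81 genes by group. The 9 genes named in the plot had an unadjusted p under 0.05, and all lie above 0.

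The 20 import genes had a median log2 fold change of 0.18, with 15 higher and 5 lower in the carnitine mean. Of them 2 (10.0%) were higher at an unadjusted p under 0.05, near the 7.98% of all genes with 1 symbol above the median signal. Both belong to the small Tim family. The pools did not overlap in 7 genes (35%) that were higher and 2 (10%) that were lower, beside 23.7% and 21.6% in that background.

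In the outer membrane the receptors and small subunits of the TOM complex did not separate the diets. The receptor TOMM22 had 2746 and 2042 in carnitine pools, against 1949 and 2292 in control pools, and TOMM20, the receptor for targeting sequences, had 605 and 731, against 635 and 704. The small subunits TOMM7 (log2 fold change 0.32) and TOMM5 (-0.05) also overlapped. TOMM40L, a relative of the channel protein TOMM40, was the only one of 6 TOM genes (16.7%) without overlap. Its signal was 197 and 248 in carnitine pools, against 158 and 146 in control pools (log2 fold change 0.54 ± 0.31). Among all genes with 1 symbol above the median signal, 23.7% were higher and 21.6% lower without overlap. TOMM70, the receptor for carrier proteins, was the only one of the 81 genes below the median signal, with 28.3 and 33.3 in carnitine pools, against 6.68 and 36.2 in control pools, too dim for its log2 fold change of 0.98 ± 0.92 to be told from 0. TOMM34, a cytosolic co-chaperone that shares the name, had a log2 fold change of 0.09.

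The small Tim proteins are chaperones that keep hydrophobic precursors from clumping on the way across the intermembrane space. TIMM8A, the gene of the human deafness-dystonia syndrome, had the smallest p of the 81 genes, with 2464 and 2162 in carnitine pools, against 985 and 976 in control pools. The control pools differed by less than 10 units, and both carnitine pools were more than 2 times as high, which gave a log2 fold change of 1.24 ± 0.19 (unadjusted p = 0.000291, adjusted p = 0.208, limma). Its close relative TIMM8B had 3469 and 3816 in carnitine pools, against 1369.5 and 2634 in control pools (log2 fold change 0.94 ± 0.31, unadjusted p = 0.0179, adjusted p = 0.467, limma). The control pools of TIMM8B lay far apart, but both were below the carnitine pools.

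TIMM13, the partner with which TIMM8A forms a ring, had 2112 and 2342 in carnitine pools, against 1860.4 and 1819 in control pools (log2 fold change 0.27 ± 0.18, unadjusted p = 0.177). The difference was in the direction of TIMM8A and smaller, and whether the genes differ from each other was not tested. In the second ring of the family, TIMM10 had 982 and 1531 in carnitine pools, against 928 and 1036 in control pools (log2 fold change 0.32), while TIMM9 had 641 and 632, against 866 and 744.5 (log2 fold change -0.34 ± 0.21). TIMM10B, which docks this ring on the carrier translocase, had 754 and 809.8 in carnitine pools, against 554 and 622 in control pools (log2 fold change 0.41). Of the 6 small Tim genes, 4 (66.7%) were higher without overlap and 1 (16.7%), TIMM9, was lower without overlap. These shares were 23.7% and 21.6% among all genes with 1 symbol above the median signal.

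In the inner membrane TIMM22, the channel for carrier proteins, had 459.7 and 428 in carnitine pools, against 363 and 275 in control pools (log2 fold change 0.49 ± 0.26, unadjusted p = 0.0981). The TIM23 translocase, which takes precursors with a targeting sequence, showed smaller differences: the log2 fold changes were 0.02 for the channel subunit TIMM17B, -0.03 for the receptor TIMM50, 0.15 for TIMM21 and 0.21 for TIMM44, which tethers the import motor. TIMM17B had 792.5 and 779 in carnitine pools, against 718 and 839 in control pools. PMPCA and PMPCB, the subunits of the peptidase that removes the targeting sequence, differed in the sign of their fold changes. PMPCB had 2632 and 2583 in carnitine pools, against 3454 and 3319 in control pools (log2 fold change -0.38 ± 0.18, unadjusted p = 0.0686), whereas PMPCA had 1728 and 1628, against 1952 and 1169.8 (log2 fold change 0.15 ± 0.27).

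**Figure D3:**
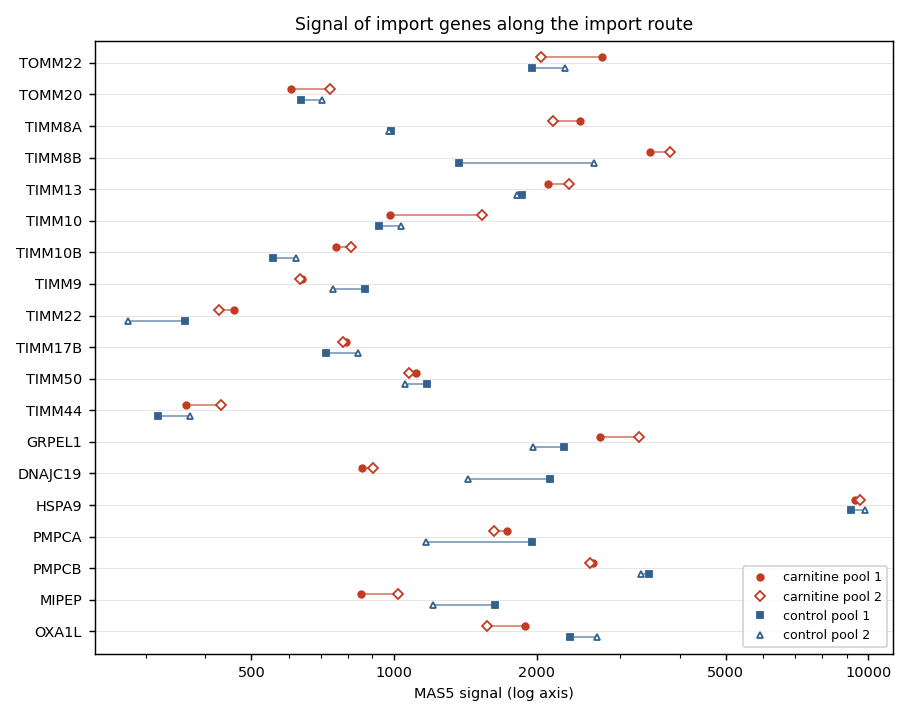
MAS5 signal (log axis) of genes along the import route in the 2 carnitine pools (red) and the 2 control pools (blue). The order runs from the outer membrane at the top to the peptidases of the matrix. OXA1L, which inserts proteins into the inner membrane, is placed at the bottom. In TIMM8A, TIMM8B, TIMM13, TIMM10B, TIMM22 and GRPEL1 both carnitine pools lie above both control pools, and in TIMM9, DNAJC19, PMPCB, MIPEP and OXA1L they lie below.

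Several partners of import that bear other names were lower in carnitine pools. Of 23 listed partners of import and membrane insertion, 13 were measured, with 3 higher and 10 lower in the carnitine mean and a median log2 fold change of -0.05. By the unadjusted p of limma 3 (23.1%) were lower, DNAJC19, OXA1L and MIPEP, and 1 (7.69%), GRPEL1, was higher. None passed the adjusted p. Among all genes with 1 symbol above the median signal, 4.37% were lower and 7.98% higher by this measure. DNAJC19, a co-chaperone of the import motor at the inner membrane, had 857 and 903 in carnitine pools, against 2131 and 1429.6 in control pools (log2 fold change -0.99 ± 0.24, unadjusted p = 0.00434, adjusted p = 0.395). OXA1L, which inserts newly made mitochondrial proteins into the inner membrane, had 1891 and 1571 in carnitine pools, against 2345 and 2683 in control pools (log2 fold change -0.54 ± 0.20, adjusted p = 0.515). MIPEP and GRPEL1 complete the 4 genes counted here. MIPEP, a second peptidase of the matrix, had 851 and 1019 in carnitine pools, against 1628 and 1205 in control pools (log2 fold change -0.59), and GRPEL1, the nucleotide exchange factor of the motor, had 2723 and 3285, against 2284 and 1961 (log2 fold change 0.50). HSPA9, the chaperone that drives the motor, had 9363 and 9615 in carnitine pools, against 9202 and 9819.9 in control pools.

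Of 15 listed matrix chaperones and proteases, 9 were measured, with a median log2 fold change of -0.13. At an unadjusted p under 0.05, 1 of them (11.1%) was lower, beside 4.37% of all genes with 1 symbol above the median signal. This was TRAP1, the mitochondrial member of the HSP90 family, with 1337 and 1272 in carnitine pools, against 1940.2 and 1998 in control pools (log2 fold change -0.59 ± 0.18, unadjusted p = 0.0136, adjusted p = 0.452, limma). The mean over the probe sets of TRAP1 gave 0.14, so its direction rests on the brightest probe set. PHB2, a scaffold of the inner membrane, had 4759 and 5413 in carnitine pools, against 5841 and 6600.3 in control pools (log2 fold change -0.29).

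Among 15 measured genes of ribosome assembly and mitochondrial RNA, of 25 listed, 12 were higher and 3 lower in the carnitine mean. The median log2 fold change was 0.12. At an unadjusted p under 0.05, 2 (13.3%) were higher, beside 7.98% of all genes with 1 symbol above the median signal. GTPBP10, a GTPase that helps to build the large subunit, had 526 and 541 in carnitine pools, against 171 and 289 in control pools (log2 fold change 1.26 ± 0.31, unadjusted p = 0.00462, adjusted p = 0.395, limma). MRM3, which methylates the RNA of the large subunit, had 426 and 480.0 in carnitine pools, against 322 and 218 in control pools (log2 fold change 0.77 ± 0.28, unadjusted p = 0.03, adjusted p = 0.52, limma). TFAM, which packs mitochondrial DNA and helps to start its transcription, overlapped between the diets. It had 2466 and 2414 in carnitine pools, against 3311 and 2256 in control pools.

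The remaining lists held 1 gene with an unadjusted p under 0.05. Accessory proteins of the ribosome were listed as subunits that bear other names. The 5 measured, of 8 listed, are not in the subunit counts above. DAP3 was lower in carnitine pools without overlap, and the other 4 overlapped between the diets. None of these 5 had an unadjusted p under 0.05 (median log2 fold change 0.07). PTCD3 (0.29) and DAP3 (-0.22) had the smallest p among them. None of 5 measured initiation, release and related factors, of 11 listed, did either (median -0.05), with MTFMT, which formylates the initiator tRNA, at 197 and 199 in carnitine pools, against 259 and 255 in control pools, and MRRF, the ribosome recycling factor, at a log2 fold change of 0.10. Of 6 measured mitochondrial aminoacyl-tRNA synthetases, of 17 listed, 1 (16.7%), NARS2, was higher at an unadjusted p under 0.05. Over all probe sets 4.72% were higher by this measure. NARS2 had 20.0 and 26.7 in carnitine pools, against 3.92 and 8.08 in control pools, well below the median signal of 111 over all probe sets. Its log2 fold change was -0.03 once dim signals were set to a floor. EARS2, which charges the glutamate tRNA, had 575 and 576 in carnitine pools, against 485 and 282 in control pools (log2 fold change 0.64, unadjusted p = 0.0717 in limma). None of the names listed for the proteins that mitochondrial DNA itself codes was matched on the array, so the messages that the mitochondrial ribosome reads were not analysed here.

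For 17 of the 81 genes several probe sets could be compared. In 10 of these genes every probe set pointed in the direction of the brightest, among them MRPL43 and MRPL2 above, MRPL32 (0.63 and 0.72 on the log2 scale) and TIMM44 (from 0.21 to 0.64). In the other 7 genes, MRPL33, MRPL35, MRPL38, MRPL46, MRPL52, MRPS9 and MRPS12, at least 1 probe set pointed the other way. MRPL33 was the plainest case, since its probe sets had similar signals: the brighter read 368 and 376 in carnitine pools, against 258 and 291.5 in control pools, and the dimmer 227 and 255, against 298 and 295. In MRPS9 the dimmer probe set read at most 56.1 on any array.

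The genes were also set beside their closest counterparts, the proteins of the cytosolic ribosome and the subunits of the respiratory chain and ATP synthase. All groups share the same 4 arrays, so the values are given side by side without a test. Of 58 cytosolic ribosomal protein genes, 7 were higher and 51 lower in the carnitine mean, with a median log2 fold change of -0.22. Both carnitine pools lay below both control pools in 39 (67.2%) and above them in 1 (1.72%). Of 60 respiratory chain and ATP synthase genes, 23 were higher and 37 lower, with a median of -0.08. Both carnitine pools lay below both control pools in 15 (25%) and above them in 4 (6.67%). Among all genes with 1 symbol above the median signal, 21.6% lay below and 23.7% above. The 25% of the respiratory chain genes is thus near the background share. The median deviation of the large subunit genes from their 4-array means was 0.01 and 0.17 in carnitine pools, against -0.05 and -0.14 in control pools, and that of the import genes was 0.04 and 0.17, against -0.10 and -0.09. For the small subunit it was -0.02 and 0.07 in carnitine pools, against -0.02 and -0.11 in control pools, so carnitine pool 1 and control pool 1 were level. For the cytosolic ribosomal proteins it was -0.01 and -0.19 in carnitine pools, against 0.14 and 0.11 in control pools.

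**Figure D4:**
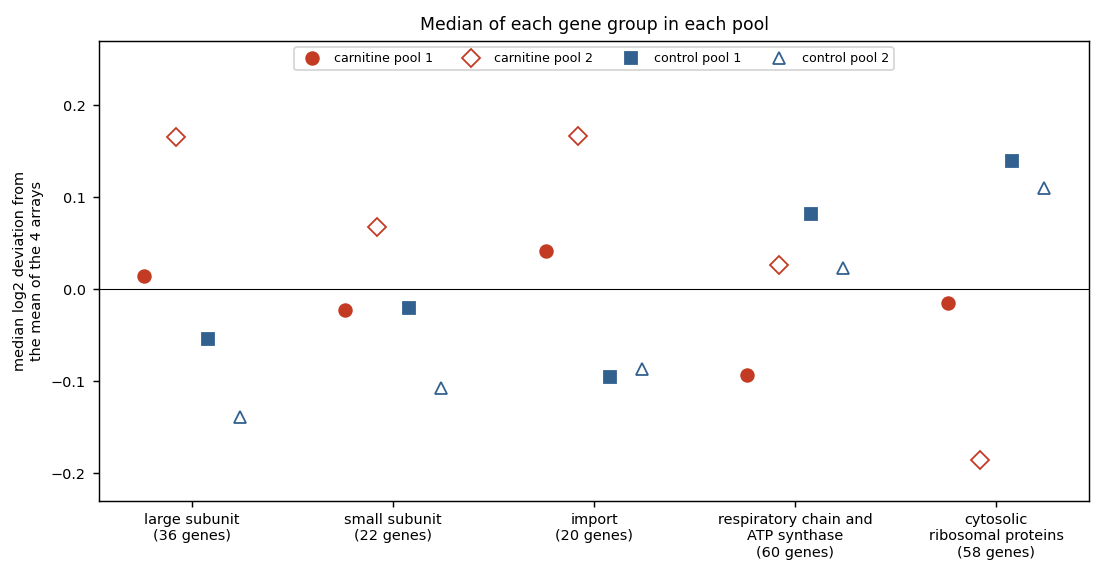
Median, over the genes of each group, of the log2 deviation of a pool from the gene's mean over the 4 arrays, for the 2 carnitine pools (red) and the 2 control pools (blue). Both carnitine pools lie above both control pools for the large subunit and import genes, and below both for the cytosolic ribosomal proteins.

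Carnitine pool 2 held the higher values of most of these genes, exceeding carnitine pool 1 in 56 of the 81. Control pool 1 exceeded control pool 2 in 48 of them. In the 5039 genes with 1 symbol above the median signal these counts were 2543 and 2631. The count of 9 genes at an unadjusted p under 0.05 depended on the pools: it was 3 without carnitine pool 2 (1.49% of all probe sets were then higher), 5 without carnitine pool 1 (2.62%), 12 without control pool 1 (6.91%) and 10 without control pool 2 (7.57%), the pool with the high stromal markers. The share over all probe sets thus fell and rose with the count, against 4.72% with all pools. The genes TIMM8A, MRPL24 and MRPL43 were among those counted each time. The gap between the pools of a diet had a median of 0.18 on the log2 scale for carnitine and 0.27 for control. The control gap was the larger in 51 of the 81 genes. In the 5039 genes with 1 symbol above the median signal the median gaps were 0.21 and 0.30. The control gap was the larger in 3025 of these 5039 genes.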

How the data were processed

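The authors deposited MAS5 signal intensities of 4 Affymetrix porcine arrays on a linear scale, background-subtracted and scaled so that all arrays have the same trimmed mean. GCOS 1.1.2, MAS5 5.0 and Affymetrix Expression Console 1.1 are named in the submitters' processing notes. No detection calls were used, and the number of arrays limits the precision. Of 24123 probe sets, 124 controls were left out. The other 23999 were put on the log2 scale without offset or filter. They were fitted with limma 3.58.1 in R 4.3.3 (lmFit, eBayes with a variance trend), with Benjamini-Hochberg adjustment over all probe sets. The fit had 2 residual and 5.18 prior degrees of freedom, so a probe set's variance leans on that of others of similar signal. An exact permutation test of 2 against 2 pools cannot give a two-sided p below 0.333 and was not used. Symbols are those of the platform annotation and may be outdated: 10069 probe sets have 1 symbol, 198 several and 13732 none. The annotation names no genome build, so no coordinates are given.

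The members and lists were chosen with earlier results of these data known. The text names, for each group, genes with an unadjusted p under 0.05 and pools that do not overlap, the 2 brightest, the largest and smallest fold changes among those above the median signal, all translation factors, related pairs, genes whose probe sets disagree in sign, and the 2 smallest p of each other list. Genes outside this rule, such as MRPL10, MRPL37, MRPL44, MRPL45, MRPL58, MRPS35, MRPS36, TIMM13, TIMM22, MIPEP, GRPEL1, HSPA9 and TFAM, were picked with their values in view. The alternatives tried were quantile normalization, median centring, a floor at the 25th percentile, an offset of 64, a filter at the median signal, eBayes without trend, the one-factor analysis of variance, a replicate block, leaving out each pool, and the mean over the probe sets of a gene. The fit was tested on simulated data.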

Additional observations from a re-analysis of the deposited data

How the results depend on the processing

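With 2 pools per diet and no detection calls, small differences and dim signals are beyond what these arrays can resolve. The numbers of the pools do not pair them: the deviations of same-numbered pools correlated at 0.0049 over all probe sets and at -0.10 over the 81 genes. With the pool number as a replicate block, 1 gene, TIMM8A, passed the adjusted p (0.0328), while 106 of all probe sets passed, against 1 without the block, and 9 genes had an unadjusted p under 0.05. The count of genes higher at an unadjusted p under 0.05 was 4 without a variance trend (3.54% of all probe sets were then higher) and 4 by the one-factor analysis of variance (3.56%), which also counted 2 genes as lower (3.45%). By this measure MRPL40, MRPL50, MRPS30, MRPS34 and TIMM8B lost their call in both, MRPL17 lost it in the second and MRPL33 gained one there. MRPL50 also lost its call under quantile normalization and the filter, and MRPL50 and MRPS30 lost it with the offset. When each pool was left out in turn, the counts ran from 3 to 12 for higher and from 0 to 3 for lower genes, with 3 lower genes without control pool 2 (4.94% of all probe sets) and 1 without control pool 1 (5.37%). A pool left alone in its diet was assumed to vary like the other diet's pools. TIMM8A, MRPL24 and MRPL43 were counted as higher under all 13 alternatives. The median log2 fold change of the small subunit was 0.14 with the mean over the probe sets of a gene and ran from 0.014 to 0.13 when a pool was left out, and that of the import genes ran from 0.13 to 0.26. Of 386 values of 43 named genes under alternatives other than leaving out a pool, 377 kept their direction and their side of the adjusted p of 0.05, which none had passed. Quantile normalization turned MRPL28 to -0.00069 and TIMM17B to -0.013, centring turned GFM1 to 0.0042, and the floor turned NARS2 to -0.026. The mean over the probe sets turned MRPS9 to 0.47, MRPL35 to 0.54, MRPL46 to -0.26 and TRAP1 to 0.14. Leaving out a pool changed the sign of 11 named genes, whose log2 fold changes then ran from -0.31 to 0.31 for MRPL28, -0.20 to 0.11 for TOMM5, -0.53 to 0.23 for MRPL35, -0.030 to 0.23 for MRRF, -0.22 to 0.16 for GFM1, -0.14 to 0.53 for TSFM, -0.27 to 0.61 for MRPL46, -0.50 to 0.11 for MRPS15, -0.095 to 0.13 for TIMM17B, -0.16 to 0.74 for PTCD3 and -0.15 to 1.20 for TUFM. The cause of these changes was not tested.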
